A study of Homo sapiens with 5 samples.

Results

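C19orf12, TPRN, IST1 and ATXN1L are 4 protein-coding genes that carry the highest ranked PHF8 promoter peaks in the established human melanoma line SKMEL-147. They were chosen from 16541 target genes among 64449 annotated genes by the mean rank of their strongest promoter peak, and they carry 3 distinct peaks, because IST1 and ATXN1L share 1. The lncRNA gene ENSG00000289030 shares the C19orf12 peak and its ranks and is described beside it. The rank comes from the fold enrichment, the ratio of ChIP fragments to the local background at the highest point of a peak (its summit). The fold enrichments and ranks given here therefore describe why the genes were selected, and no test was made on them. A target gene had a peak overlapping the 1 kb on either side of any of its annotated transcription start sites (TSSs) in all 3 replicates.

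The series holds 5 samples of the same line, with 3 chromatin immunoprecipitations made with an antibody against PHF8 (replicates A, B1 and B2) and 2 input DNA samples (A and B). The labels give every sample the same cell line and no treatment or time, and they do not say whether the replicates came from separate cultures. All ChIP samples thus form 1 group, there is no comparison between conditions, and the spread between replicates may be technical. The series' design text speaks of a PHF8 loss-of-function model made with guide RNAs, and the names of the deposited lists carry the letters scr, but the labels name no guide RNA arm, so whether the cells carried a control guide cannot be told. The inputs enter only through the background that the deposited peak values contain. By their labels B1 and B2 appear to share input B. Their backgrounds are then not independent, and an SD of fold enrichment or rank over 3 replicates does not rest on 3 separate inputs.

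PHF8 belongs to the Jumonji C histone demethylases. Its PHD finger binds trimethylated lysine on histone H3 at active promoters, and its catalytic domain removes methyl groups that are linked to gene silencing. C19orf12 encodes a small membrane protein of mitochondria and the endoplasmic reticulum, and its mutation causes a form of neurodegeneration with brain iron accumulation. TPRN encodes taperin, a protein at the base of the stereocilia of hair cells whose mutation causes deafness. IST1 encodes a subunit of ESCRT-III, the machinery that constricts membranes in endosomal sorting and at the end of cell division. ATXN1L encodes a paralogue of ataxin-1 that forms a complex with the transcriptional repressor CIC.

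The sequence around the summits is shown first, since it is where the ChIP fragments piled up most. Sequences were read from the GRCh37 (hg19) reference on the strand of the gene, 5′ to 3′. At C19orf12 (chr19:30206335-30206469, minus strand) the capitals mark the 8 bases from the summit of B1 to that of B2, and the summit of A lies just downstream of the end of the run. At ATXN1L and IST1 (chr16:71879978-71880127, plus strand) the capitals mark the 44 bases from the first to the last of the 3 summits.
C19orf12: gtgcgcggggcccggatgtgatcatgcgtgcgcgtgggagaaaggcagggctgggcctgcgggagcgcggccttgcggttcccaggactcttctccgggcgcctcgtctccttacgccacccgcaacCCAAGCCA
ATXN1L and IST1: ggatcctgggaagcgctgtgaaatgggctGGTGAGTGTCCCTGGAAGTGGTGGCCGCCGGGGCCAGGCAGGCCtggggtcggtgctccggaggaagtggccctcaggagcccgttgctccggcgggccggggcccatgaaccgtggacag

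In the next 3 runs the capitals mark matches to short motifs, searched on both strands: the GC box GGGCGG or its reverse complement, the NFY letters CCAAT, the ETS letters CCGGAAG and the E-box letters CACGTG. They are the stretch from 150 bp upstream of the main TSS of TPRN past its 3 summits (chr9:140095044-140095343, minus strand), the 200 bp upstream of the ATXN1L TSSs under the shared peak (chr16:71879679-71879878, plus strand), and the 30 bp of C19orf12 that hold both of its ETS matches (chr19:30206187-30206216, minus strand). A match is a description of the letters and does not show that a factor binds there.
TPRN: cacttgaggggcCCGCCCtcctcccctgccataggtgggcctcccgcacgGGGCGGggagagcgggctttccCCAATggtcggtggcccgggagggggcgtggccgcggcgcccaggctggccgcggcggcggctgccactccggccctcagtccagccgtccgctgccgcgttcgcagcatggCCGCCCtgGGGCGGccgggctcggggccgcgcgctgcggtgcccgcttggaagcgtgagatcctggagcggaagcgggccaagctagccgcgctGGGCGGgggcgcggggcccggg
ATXN1L and IST1 upstream: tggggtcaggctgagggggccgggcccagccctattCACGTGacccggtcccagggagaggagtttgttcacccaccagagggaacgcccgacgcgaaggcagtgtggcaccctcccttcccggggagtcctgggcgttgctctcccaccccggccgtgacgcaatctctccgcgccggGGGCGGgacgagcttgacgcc
C19orf12 ETS matches: ttcCCGGAAGgcccggcgcagCCGGAAGgt

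The C19orf12 peak ranked highest of all promoter targets (ENSG00000131943, chromosome 19, 30189844 to 30206696, minus strand). Replicates A, B1 and B2 gave fold enrichments of 78.7, 57.4 and 52.7 (mean 62.9 ± 13.9, SD, n = 3). Replicate A was the highest and B2 the lowest, but the scale of fold enrichment differs between lists, whose median peak had 18.9, 11.8 and 11.8. Relative to the median of its own list the C19orf12 peak was 4.17 to 4.86 times higher. It ranked 3rd, 11th and 9th among the target genes (mean rank 7.67 ± 4.16). From the fold enrichment and the p-value the number of ChIP fragments at the summit could be recovered as a whole number, which was 201 (95% exact Poisson interval 174 to 231), 170 (145 to 198) and 162 (138 to 189). These intervals cover counting error only, and those of the 3 replicates overlap. The counts are not scaled between lists, whose median peak held 54, 39 and 40 fragments in A, B1 and B2. The overlap therefore does not measure how well the replicates agree.

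The TPRN peak (ENSG00000176058, chromosome 9, 140086069 to 140098645, minus strand) reached 75.1, 47.5 and 48.7-fold in A, B1 and B2 (mean 57.1 ± 15.6, SD, n = 3). It carried 202, 153 and 163 fragments. Its ranks of 13, 47 and 23 spread the most of the members (SD 17.5), with the lowest place in B1. Scaled to the list medians, however, the fold enrichment varied little, from 3.98 to 4.13 times the median. It was also the widest of the 3 peaks, at 1264, 1153 and 1107 bp, wider than 85.5% to 87.6% of the strongest promoter peaks of target genes.

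IST1 (ENSG00000182149, chromosome 16, 71879899 to 71965102) and ATXN1L (ENSG00000224470, chromosome 16, 71842342 to 71919171) lie on the plus strand and overlap, and both had the same strongest peak. The fold enrichments were 70.7, 49.2 and 47.9 in the order A, B1, B2 (mean 55.9 ± 12.8, SD, n = 3), from 206, 157 and 159 fragments. The ranks of 32, 33 and 29 were the most even of the members (SD 2.08). The reads at this peak cannot be divided between the 2 genes.

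The lncRNA gene ENSG00000289030, on the strand opposite to C19orf12, shared its peak in all 3 replicates and so its ranks. It was the only other gene whose TSS window met a member's strongest peak in every replicate, and no other gene shared those of TPRN or of IST1 and ATXN1L.

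**Figure D1:**
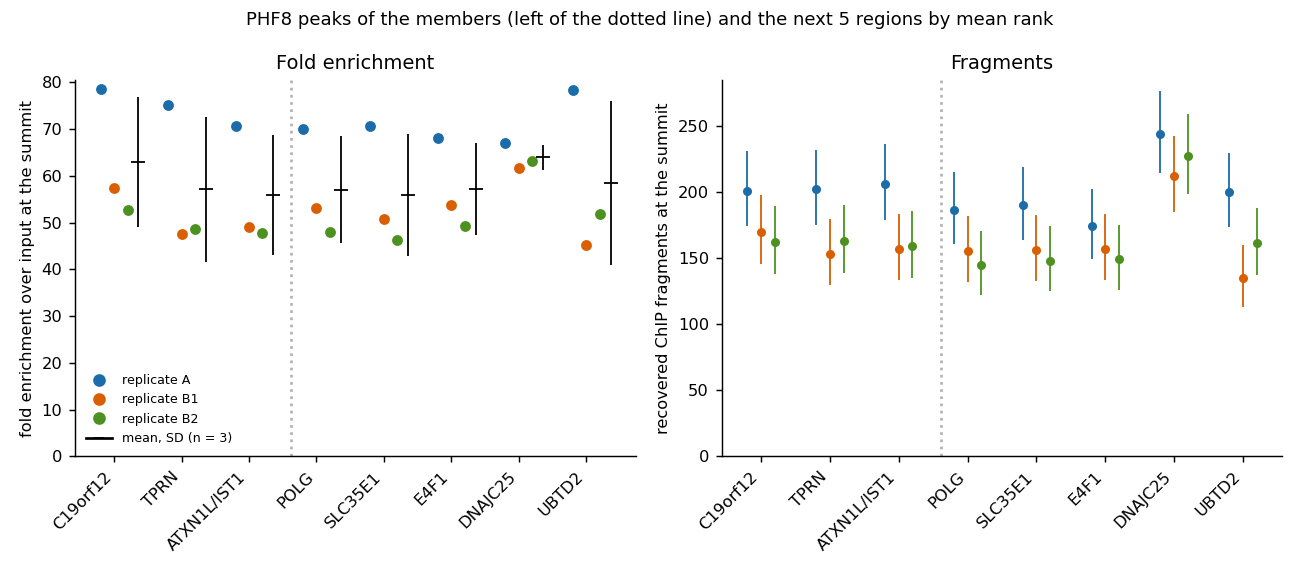
Fold enrichment (left, linear axis from 0) and recovered ChIP fragments at the summit (right, with 95% exact Poisson intervals) in replicates A, B1 and B2 for the members and the next 5 promoter regions by mean rank; black bars are the mean and SD of 3 replicates. The means of the members, 55.9 to 62.9, lie among those of the next regions, and the DNAJC25 region has the most fragments in each replicate.

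The threshold between the members and the next genes was narrow. The shared peak of IST1 and ATXN1L, just inside, had a mean rank of 31.3, and that of POLG, just outside, 33.0 ± 18.5. POLG, which encodes the catalytic subunit of the mitochondrial DNA polymerase, had fold enrichments of 70.0, 53.2 and 48.0, so its value was above that of IST1 and ATXN1L in B1 and B2 and below it in A. The following regions were those of SLC35E1 (mean rank 36.3), E4F1 (36.7), DNAJC25 (39.7) and UBTD2 (41.3). DNAJC25, a gene of the DnaJ chaperone family, ranked first in B1 and B2 and 117th in A, and its mean fold enrichment of 64.0 ± 2.68 was higher than that of every member. UBTD2 had 78.3 in A, nearly the value of C19orf12, but 45.3 in B1.

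The order changed with the measure. By recovered fragments C19orf12 ranked 78, 22 and 42, TPRN 69, 111 and 37, and IST1 and ATXN1L 41, 84 and 59. In the order of these mean ranks C19orf12 came 32nd, IST1 and ATXN1L 40th and TPRN 53rd. The DNAJC25 region was first in all 3 replicates by fragments, with 244, 212 and 227. By p-value the members kept higher places, with C19orf12 5th, IST1 and ATXN1L 15th and TPRN 17th in the order of mean ranks. The difference between these orders lies in the background term. At the C19orf12 summit the background was 1.57, 1.98 and 2.09 fragments, which is 1.00 to 1.02 times the genome-wide background of each list. Such a low background is common, since 35.8%, 37.6% and 36.8% of all peaks in A, B1 and B2 sat at the genome-wide value. At TPRN it was 1.70, 2.24 and 2.37, at IST1 and ATXN1L 1.93, 2.21 and 2.34, and at DNAJC25 2.66, 2.45 and 2.60 fragments.

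**Figure D2:**
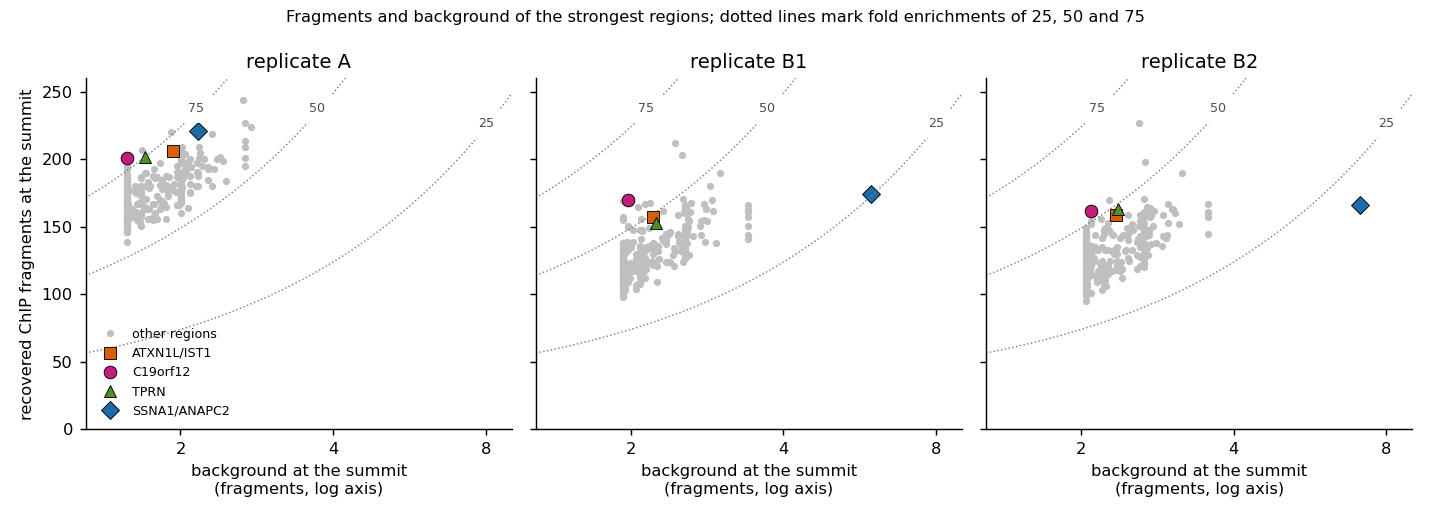
Recovered ChIP fragments (linear axis) against the background at the summit (log axis, fragments) for the regions of the 400 target genes with the highest mean rank, in each replicate, and for the SSNA1/ANAPC2 peak, which is not among them; dotted curves join points of equal fold enrichment (25, 50 and 75). The C19orf12 summit sits at or near the left edge, as do many other regions. The SSNA1/ANAPC2 peak next to TPRN has 221, 174 and 166 fragments at backgrounds of 2.17, 5.96 and 7.11.

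The 3 replicates placed the TPRN and C19orf12 summits closer together than at most promoters, and those of IST1 and ATXN1L farther apart. The TPRN summits lay at 140095060, 140095065 and 140095069, a range of 9 bp, and those of C19orf12 at 30206324, 30206342 and 30206335, a range of 18 bp. Those of IST1 and ATXN1L, at 71880026, 71880050 and 71880007, spanned 43 bp. Over 10473 distinct promoter regions whose peaks overlapped in all replicates, the median range was 32 bp (quartiles 19 and 55 bp). The range was smaller than that of TPRN in 6.46% of regions, smaller than that of C19orf12 in 22.8%, and smaller than that of IST1 and ATXN1L in 65.0%. Peak height was not held constant in this comparison, and its part in the summit range was not tested.

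Every summit lay downstream of the nearest TSS of its gene. The C19orf12 summits fell in untranslated sequence (UTR), 40, 22 and 29 bp downstream of the TSS at 30206364 (ENST00000392275). The TPRN summits fell in the coding part of an exon, 133, 128 and 124 bp downstream of the TSS at 140095193 (ENST00000409012). The shared summits were 54, 78 and 35 bp downstream of the ATXN1L TSS at 71879972 (ENST00000565676) and 127, 151 and 108 bp downstream of the IST1 TSS at 71879899 (ENST00000568581), in a UTR in B2 and in intronic sequence in A and B1. Over all target genes the median signed distance was 68, 65 and 67 bp downstream, and 60.9% of targets had the summit downstream (mean of 3 replicates), so the position of the members is the common one. The lncRNA ENSG00000289030 starts 122 bp from the mean C19orf12 summit and is transcribed towards it.

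**Figure D3:**
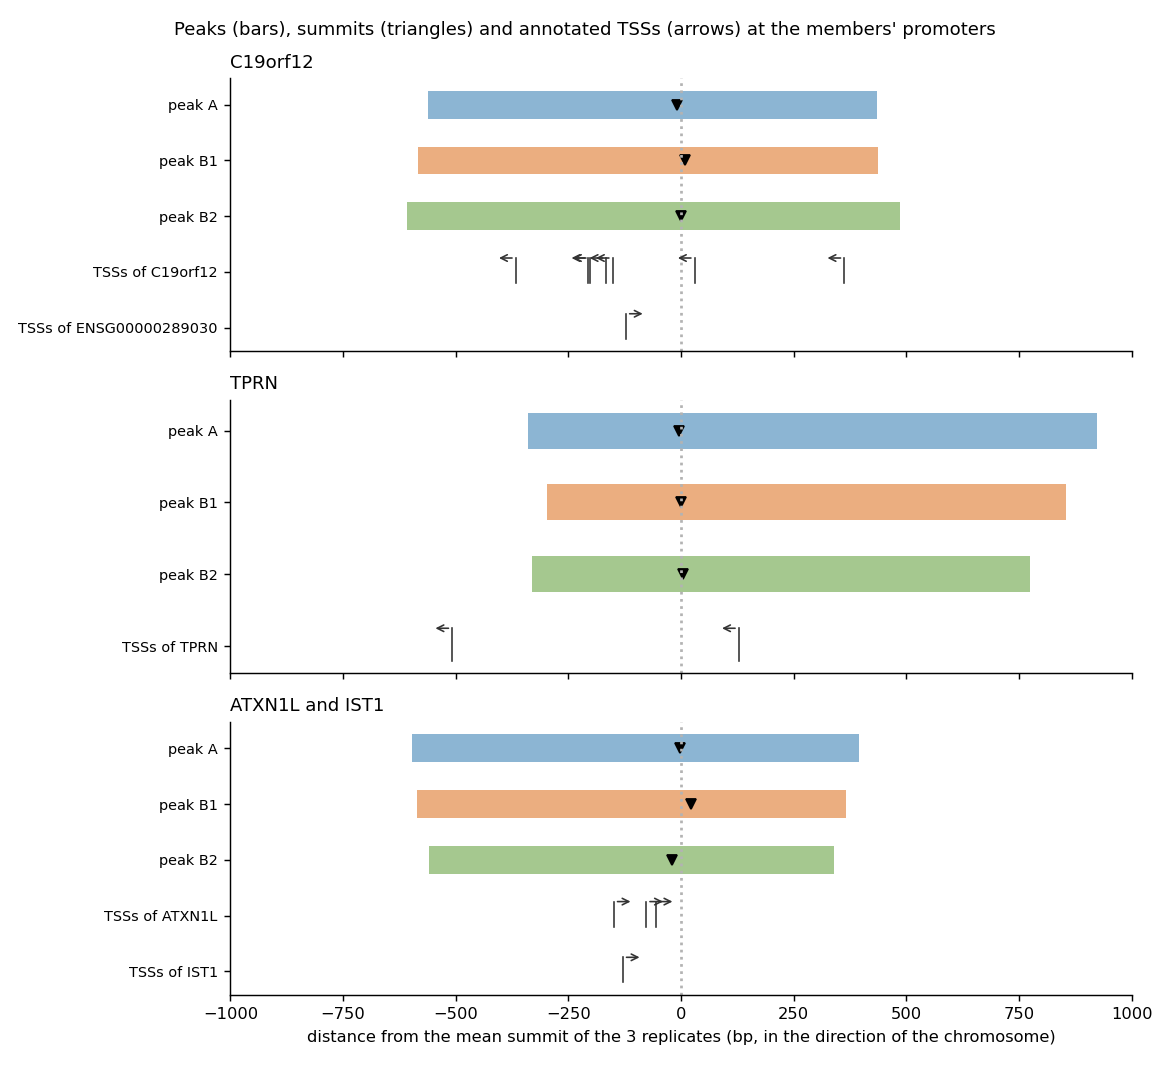
Peaks (bars), summits (triangles) and annotated TSSs with their direction (arrows) within 1000 bp of the mean summit, in bp along the chromosome, for the 3 member regions in replicates A, B1 and B2. The summits of the replicates lie within 18 bp (C19orf12), 9 bp (TPRN) and 43 bp (ATXN1L and IST1) of each other, and most C19orf12 TSSs lie to the left of its summits.

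The genes differed in how much of their promoter set the strongest peak covered. Of all annotated gene and TSS pairs, 35% had a peak within 1 kb in all 3 replicates, and 58.8% of the TSSs of protein-coding target genes did. C19orf12 had 8 distinct TSSs, of which 7 (87.5%) met the strongest peak, and only the internal TSS at 30199547 met none. The summits thus lay downstream of the 2 outermost TSSs and upstream of the other 5 under the peak. TPRN had 4, of which 2 (50%) met the strongest peak in every replicate. Its outermost TSS at 140098645, where the gene record begins, met no peak in A or B2, and in B1 only the end of the neighbouring TMEM203 and NDOR1 peak (fold enrichment 33.5, summit at −1329 bp from this TSS). A catalogue that lists only this TSS would therefore leave TPRN without a target call.

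IST1 had 25 distinct TSSs in 27 transcripts, and only 1 of them, that of ENST00000568581, met the strongest peak. A further 14 TSSs with 16 transcripts met other, lower peaks in all replicates, and 10 met none. Nearly all of the 14 lay around 71929434, where the peak had fold enrichments of 29.7, 26.2 and 21.8. The rank of IST1 thus rested on 1 transcript that starts among the TSSs of ATXN1L, upstream of the other TSSs. All 4 TSSs of ATXN1L (100%) had a peak, 3 of them the strongest. The fourth, at 71842342 (ENST00000683775), marks the start of the gene record and met a peak of 30.2, 27.6 and 19.8, which is also the strongest peak of AP1G1, a gene for an adaptor protein of clathrin-coated vesicles.

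Around the members, 14 of 24 protein-coding genes with a TSS within 100 kb were targets, which is close to the share among all protein-coding genes, 60.2% (25.7% of all annotated genes were targets). Both neighbours of C19orf12 were targets, PLEKHF1 near the middle of the ranking and CCNE1 low in it. PLEKHF1, which encodes an endosomal and lysosomal protein, had 35.9, 16.2 and 16.8 (mean percentile 48.1 among targets, where 100 is the top). CCNE1, which encodes cyclin E, had 19.5, 7.97 and 7.66 (mean percentile 13.2). No other peak within 100 kb of C19orf12 had a fold enrichment above the 35.9 of PLEKHF1 in A. The 2 neighbours of IST1 and ATXN1L, ZNF821 and AP1G1, were also targets, at mean percentiles of 63.8 and 61.7. ZNF821 had 31.1, 26.2 and 21.8, and its higher peak was a different one in A than in B1 and B2, where it was the one at the IST1 TSSs near 71929434.

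TPRN lay in a denser stretch, in which 10 of 20 protein-coding neighbours were targets. Among them NELFB, which encodes a subunit of the negative elongation factor of RNA polymerase II, had the highest mean percentile and the highest value in B1 and B2, with 67.5, 50.7 and 49.5 and a TSS 54714 bp from the TPRN summit, and it ranked 99, 29 and 18 against 13, 47 and 23 for TPRN. TOR4A had the lowest mean percentile (39.2), with 40.9, 13.3 and 10.7. The 10 neighbours that were not targets were ENSG00000284976, CYSRT1, RNF224, TMEM210, ENSG00000261793, SLC34A3, LRRC26, GRIN1, FAM166A and STPG3, of which only GRIN1 met a peak in any replicate (6.28 in A).

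The peak between SSNA1 and ANAPC2, whose TSSs lie 11907 and 12053 bp from the TPRN summit, showed how the background term acts on a rank. It held 221, 174 and 166 fragments, each more than at TPRN and each inside the counting interval of TPRN. Its fold enrichment was 70.1 in A but 25.2 in B1 and 20.6 in B2, where the background at its summit was 5.96 and 7.11 fragments against 2.17 in A. Its rank fell from 45 in A to 4254 in B1 and 6367 in B2, while TPRN remained among the 50 highest. Because B1 and B2 appear to share input B, their 2 higher backgrounds are not independent observations. The cause of the higher background was not tested, and the input reads were not analysed here. A further peak near TPRN, whose summit in A had an offset of −70654 bp and whose fold enrichments were 50.9, 24.8 and 30.0, had no annotated TSS within 1 kb.

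**Figure D4:**
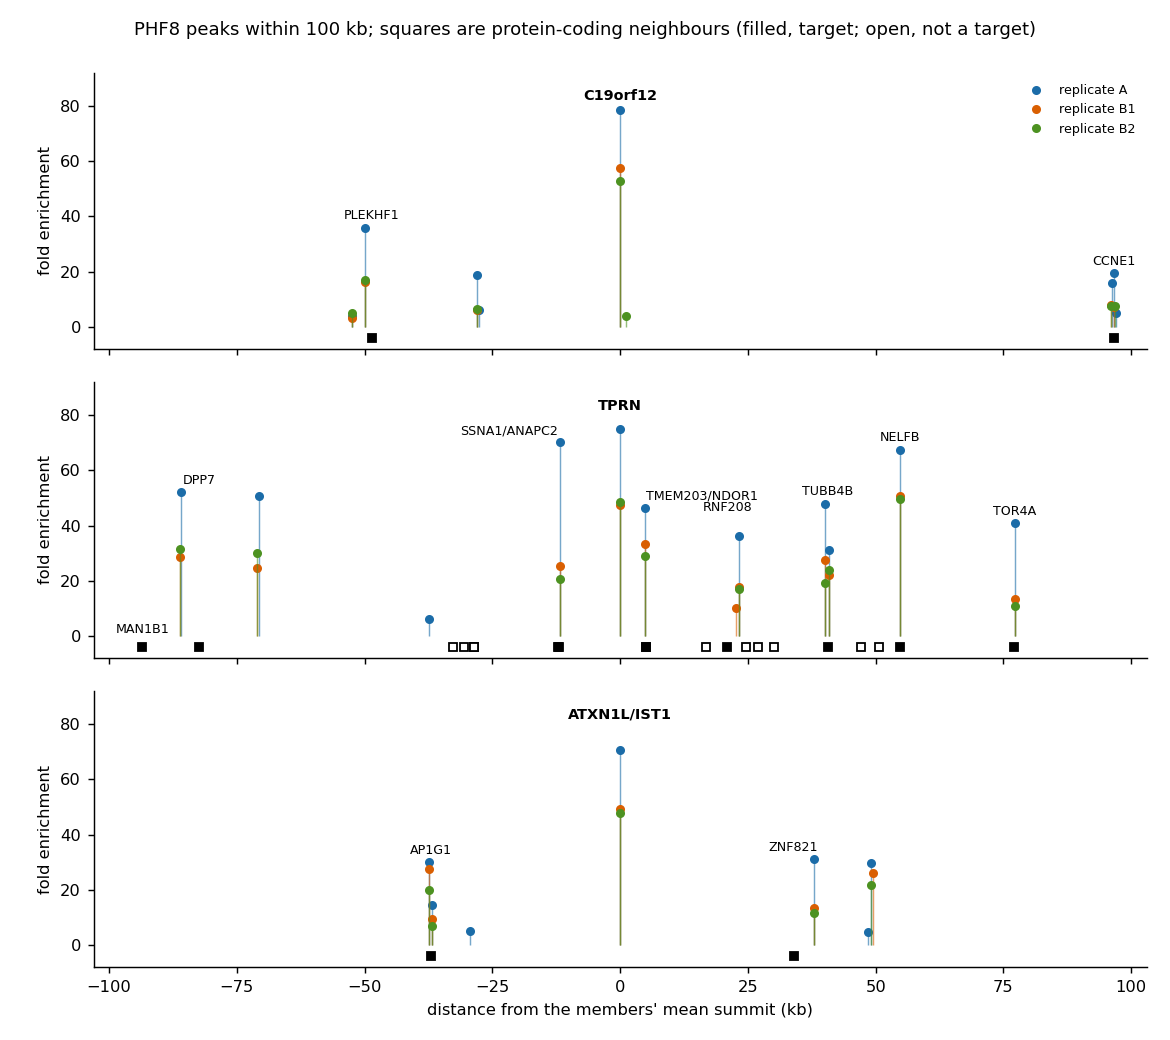
Fold enrichment of every peak within 100 kb of each member summit in replicates A, B1 and B2, against the distance in kb; squares mark the nearest TSS of protein-coding neighbours (filled, target; open, not a target). C19orf12 and ATXN1L/IST1 stand above the other peaks of their regions, whereas NELFB and, in A, SSNA1/ANAPC2 come near TPRN; the strongest MAN1B1 peak lies outside the window.

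In base composition the members were not alike. In the 501 bp centred on the summit, TPRN had 80.6%, 80.6% and 80.4% G and C in the 3 replicates, above 96.7% to 97.2% of the strongest target promoter peaks, whose median was 68.5%. Its ratio of observed to expected CpG was 0.991, 0.990 and 0.970, in the upper part of the range (median of all 0.833 in A). C19orf12 had 76.2%, 75.4% and 75.8% G and C but a CpG ratio of only 0.667, 0.665 and 0.659, which is higher than that of 13.3% to 14.4% of peaks. IST1 and ATXN1L had 72.9%, 73.7% and 73.5% G and C, above 70.9% to 74.9% of peaks. Their ratios of 0.707, 0.736 and 0.757 were higher than those of 20.1% to 29.8% of peaks, so also below the median. All 3 met the definition of CpG-island-like sequence (at least 0.5 G and C and a ratio of at least 0.6), as did 91.0% to 91.3% of the peaks.

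The motif content differed as well. TPRN had 8 matches to the GC box within the 501 bp in every replicate, 4 of which are in the run printed above (the run's farthest upstream match lies outside the 501 bp), and 4.08% of target windows had at least 8. The high G and C share of TPRN was not held constant in this comparison, and its 3 windows cover nearly the same bases. TPRN also had 1 CCAAT, which starts 78 bp upstream of its TSS and is found in 36.8% to 37.3% of windows over the replicates. C19orf12 had 2 GC boxes (at least 2 in 66.0% of windows) and 2 CCGGAAG, with at least 2 in 4.08% and at least 1 in 22.2% of windows. The G and C share of C19orf12 was not held constant either. In all, 9 motifs were searched in each of the 3 regions, so some low shares can arise from the number of motifs tried. The 2 ETS matches lie 13 and 31 bp upstream of the C19orf12 TSS at 30206182 and 169 and 151 bp downstream of the TSS at 30206364. IST1 and ATXN1L had 3 GC boxes (at least 3 in 46.6% of windows). Of these, 1 lies 21 bp upstream of the first ATXN1L TSS under the peak, and the CACGTG match, 164 bp upstream of the same TSS, falls outside the 501 bp. The letters GCATGCG, TGACGTCA, AAGATGGCG, TCTCGCGAG and ACTACAA were in none of the members' windows. Most target windows lack them too, since they were found in only 6.95%, 3.01%, 4.89%, 1.31% and 3.03% of windows.

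The genes that work with the members were bound to different extents. The first list held 20 genes of ESCRT-III, its partner ATPase VPS4 and associated factors (VTA1, SPAST, SPART, MITD1, STAMBP and USP8). Of these 20 genes, 19 were targets, beside 60.2% of all protein-coding genes. The median percentile of those other than IST1 was 65.6, beside 53.1 for all protein-coding targets. CHMP4A, a core filament subunit, was the highest of them (97.9, fold enrichment 60.2, 40.5 and 39.3) and SPART the lowest (25.7). CHMP4C was not a target. Of 14 genes of the ataxin-1 and CIC list, all 14 were targets, but the median of those other than ATXN1L was only 38.0. The corepressor HDAC3 (67.1, 43.7 and 46.0, percentile 99.4) stood highest and ETV1, a gene repressed by CIC, lowest (16.0, 10.6 and 8.87, percentile 15.4). ATXN1 itself, the paralogue of ATXN1L, had 20.3, 11.9 and 9.004 (percentile 19.5), and CIC 38.6, 17.9 and 17.2 (percentile 53.3).

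Of 10 genes mutated in brain iron accumulation, 8 were targets (60.2% of all protein-coding genes were), at a median of 61.1 without C19orf12. DCAF17 (46.6, 30.2 and 33.5) was the highest and the phospholipase gene PLA2G6 (13.6, 6.35 and 7.09) the lowest, and FA2H and CP were not targets. Of 13 genes of stereocilia and hearing, 4 were targets, beside the same 60.2%. Apart from TPRN these were RDX, MYO6 (35.8, 15.4 and 14.1, the highest) and GRXCR2 (18.6, 7.48 and 5.33, the lowest), with a median percentile of 36.1. The other 9, CLIC5, PTPRQ, GRXCR1, RIPOR2, MYO7A, MYO3A, ESPN, LOXHD1 and STRC, met no peak within 1 kb of a TSS in any replicate. These counts describe short lists, and no list was tested.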

How the data were processed

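SKMEL-147 chromatin was precipitated with a PHF8 antibody in 3 samples and sequenced beside 2 inputs. Reads were aligned by the authors to hg19 with Bowtie2, and they called narrow peaks with MACS in each replicate against input. The supplement names MACS2; its full version and the treatment of duplicate reads are not given in the sources used here. The deposited peak lists give a fold enrichment (a linear ratio of ChIP over background at the summit), a −log10 p-value, a −log10 q-value, a display score, which was not used, and the summit as an offset from the peak start. The lists held 21506, 20882 and 20120 peaks, and the total reads per library are unknown. Fragments n and background b were recovered from the ratio, (n + 1) over (b + 1), and the Poisson p-value, and a whole number within 0.001 was found for 100% of peaks. TSSs came from GENCODE 44 mapped to GRCh37, on chromosomes 1 to 22, X and Y. Genes were ranked by their strongest promoter peak within each replicate. Scripts used Python 3.11.15, numpy 2.4.6, pandas 2.3.3 and scipy 1.17.1 and were tested on simulated data. The members, lists and motifs were chosen with earlier results of these data known. Named genes were the members, genes sharing their peaks, neighbours within 100 kb, the next 5 regions by mean rank, and the highest, lowest and unbound members of 4 gene lists. The other neighbours and list genes given by value, among them SSNA1, ANAPC2, ATXN1, CIC and RDX, were chosen after their values were seen.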

Additional observations from a re-analysis of the deposited data

How the results depend on the processing

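The alternatives were other measures, windows, TSS sets, distances and flanks, and leaving out each replicate. Of 193 recomputed values, 160 moved by no more than the SD between replicates or, for counts, by no more than 1.5 times. All those without replicate A, B1 or B2 were among them. For fold enrichment, summit distance, G and C share and CpG ratio that outcome was fixed in advance. Leaving out 1 of 3 replicates cannot move their mean by more than the SD, and mean ranks are nearly bound in the same way. IST1 and ATXN1L share a peak, so many of its values were counted for both genes. Leaving out B1 moved the mean rank of TPRN from 27.7 to 18, within its SD of 17.5, and leaving out A moved it to 35. Ranking by recovered fragments moved the mean rank of C19orf12 to 47.3, of TPRN to 72.3 and of IST1 and ATXN1L to 61.3. With the summit inside the window IST1 and ATXN1L came to 29.0, and among protein-coding genes to 22.7. With 1 TSS per gene, ATXN1L fell to a mean rank of 5808 and a mean fold enrichment of 25.9, its summit lay 268 bp from the TSS and that of C19orf12 362 bp, and TPRN had no value because it was not a target. With TSSs of protein-coding transcripts only, the ATXN1L distance was 149 bp. The share of TSSs with a peak became 75% for TPRN at 2 kb, and for IST1 52% at 500 bp and 48% with the summit inside the window. The protein-coding target neighbours of C19orf12 numbered 1 of 1 within 50 kb and 4 of 5 within 250 kb. Those of TPRN were 6 of 15 and 18 of 37, and those of IST1 and ATXN1L 6 of 10 within 250 kb. A wider radius takes in more genes, and 60.2% of all protein-coding genes were targets. With 500 bp on either side of the summit, G and C made up 69.7% at C19orf12, 79.8% at TPRN and 66.9% at IST1 and ATXN1L, and the CpG ratios were 0.634, 0.956 and 0.652. With 150 bp, G and C made up 80.3% at TPRN and 74.1% at IST1 and ATXN1L, and the C19orf12 CpG ratio was 0.764.

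No paired analysis was possible because the ChIP samples form 1 group and the inputs have no peak list of their own, so that no comparison between groups was tested.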
